A study of Mus musculus with 14 samples.

Results

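Prdm16, Prdm1, Prdm2, Prdm6, Prdm8 and Ebf1 to Ebf4, 9 genes of the PR domain and early B cell factor families, were examined for DNA methylation in the mammary adipose tissue of 14 mice. Every site that the methylation table assigns to 1 of these symbols was taken. This gave 114 of 75761 sites, with 57 for Ebf3, 34 for Prdm16, 11 for Prdm6, 6 for Ebf4, 4 for Prdm8 and 2 for Ebf2. Prdm1, Prdm2 and Ebf1 had 0 sites in the table and were not analysed here. The mice were female, wild-type C57BL/6N mice (C57BL/6NCrl in the study's methods) that all carried an orthotopic E0771 tumor, a transplanted mouse mammary cancer line, and the tissue was the mammary fat pad on the other side of the body, removed 4 weeks after the tumor cells were given. The 3 CON-LFD mice stayed lean on a diet with 10% of calories from fat and had a sham operation. All mice were bought at 8 weeks of age, and the tumor cells were given 22 weeks after the diets began. The other mice were made obese with a 60% fat diet over 15 weeks. The 4 DIO-HFD mice then remained on that diet after a sham operation, the 3 DIO-LFD mice lost weight on the 10% fat diet after a sham operation, and the 4 DIO-VSG mice lost weight after vertical sleeve gastrectomy, a stomach-reducing surgery, combined with the 10% fat diet. The comparisons ask whether methylation in obese tissue differs from that in lean tissue and after either kind of weight loss. The fat pad is a mixture of adipocytes, epithelium, vessels and immune cells, so a different level within cells and a different share of cell types cannot be told apart, and sequence data of this kind hold no marker expression with which to check the tissue label.

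PRDM16 is a zinc finger transcriptional coregulator that drives brown and beige adipocyte identity and represses white fat and muscle genes. EBF proteins are DNA-binding factors of adipogenesis: EBF1 acts in adipocyte differentiation and EBF2 marks brown and beige precursors and recruits PPARγ to their enhancers, while EBF3 and EBF4 are close paralogs. PRDM1, also called BLIMP1, is a repressor known from plasma cell differentiation, PRDM2 is a histone methyltransferase, and PRDM6 and PRDM8 are repressors known from smooth muscle and from neurons. Methylation of CpG sites at CpG islands commonly accompanies a silent promoter, while methylation inside genes has no such fixed relation to transcription.

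The stretches that hold 4 blocks of neighbouring Prdm16 and Ebf3 sites with the largest differences in percentage points between DIO-VSG and DIO-HFD mice, and 1 stretch of Prdm16 with the opposite direction, are shown so that the measured sites can be placed. They are given 5′ to 3′ on the plus strand of mm10, in lower case with the CpGs that were measured in capitals. Prdm16 and Ebf3 are both on the minus strand. The first lies in a CpG island in intron 1 of Prdm16, at chr4:154634816-154635076, and also inside 5930403L14Rik, a noncoding transcript on the same strand.
Prdm16 intron 1 island: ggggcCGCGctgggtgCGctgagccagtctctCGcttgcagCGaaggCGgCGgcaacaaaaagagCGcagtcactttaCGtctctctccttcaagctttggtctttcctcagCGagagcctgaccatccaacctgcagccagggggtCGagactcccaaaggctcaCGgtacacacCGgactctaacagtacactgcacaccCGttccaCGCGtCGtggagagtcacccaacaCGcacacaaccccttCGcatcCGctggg
The second lies upstream of the Ebf3 start in the GENCODE M21 annotation, at chr7:137315694-137315987, and the third further upstream, at chr7:137318179-137318333. Both are within an intron of longer Ebf3 transcripts in RefSeq.
Ebf3 near upstream stretch: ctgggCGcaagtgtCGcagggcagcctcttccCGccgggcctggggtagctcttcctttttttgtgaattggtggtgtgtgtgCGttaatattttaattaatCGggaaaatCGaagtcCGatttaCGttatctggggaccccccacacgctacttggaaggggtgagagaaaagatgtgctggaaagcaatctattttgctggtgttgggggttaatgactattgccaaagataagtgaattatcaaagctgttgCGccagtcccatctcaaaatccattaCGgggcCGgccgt
Ebf3 far upstream stretch: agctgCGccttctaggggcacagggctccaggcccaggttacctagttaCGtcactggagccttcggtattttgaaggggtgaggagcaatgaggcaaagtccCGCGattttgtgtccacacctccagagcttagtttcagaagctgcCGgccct
The fourth is also in intron 1 of Prdm16, further from the start, at chr4:154630275-154630407.
Prdm16 distal intron 1 stretch: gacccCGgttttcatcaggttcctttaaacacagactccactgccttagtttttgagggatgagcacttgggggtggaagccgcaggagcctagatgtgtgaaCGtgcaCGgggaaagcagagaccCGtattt
In the Prdm16 island all 20 CpGs of the 261 bases were measured, against a median of 11 CpGs in windows of that length centred on the 7586 blocks of neighbouring sites in the table. The near Ebf3 stretch has 14 CpGs, of which 11 were measured. The palindromic EBF motif TCCCNNGGGA, which reads the same on both strands, had 0 matches in each of the 4 stretches. It occurred in between 0.804% and 1.73% of block windows of the same lengths. RefSeq promoter windows (GRCm38.p6, 250 bases before to 50 after a start) were matched for 6 of the 9 genes, and they held 0 matches too, against 0.904% of all 32851 promoters. That these letters are missing says nothing of EBF binding. Few promoter CpGs were read: 1 of 24 in the Prdm16 window, 2 of 46 in the Ebf3 window, 1 of 35 in the Ebf4 window and 0 of 12 in the Prdm8 window.

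The level of a site is the methylated share of its reads in a mouse, in percent. Of the 114 sites, 19 were in promoters by the flags of the table, 50 in gene bodies outside a promoter and 45 outside both, and 48 were in CpG islands. Their mean levels over the mice ran from 7.45% to 90.6%, with a median of 34.8%. The sites at the enzyme's own recognition sequence, CCGG, stood apart: the 35 such sites had a median level of 53.6% and 22 of them lay between 40% and 60%, while the 79 other sites had a median of 23.8% and 11 lay in that range. Over all genes, 36.3% of CCGG sites and 15.3% of other sites lay between 40% and 60%. Both Ebf2 sites were at CCGG and varied little. The Ebf2 site 76 bp upstream of the start (chr14, 67233216) had levels from 50.5% to 64.1%, and the Ebf2 site in an exon (chr14, 67236423) from 44.2% to 64.2%.

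One mouse must be named before the comparisons. Over the sites of all other genes DIO-HFD replicate 1 had a mean level of 65.1%, while replicates 2, 3 and 4 had 57.0%, 57.4% and 57.3%, and the 10 mice of the other groups had 60.0% to 64.1%. At the sites described here replicate 1 mostly lay with the mice of the other groups as well, so results are given with and without it where its absence changes a call. Whether this mouse or its label is atypical cannot be told from the data, and a result without it holds for the other 3 DIO-HFD mice only.

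Differences were tested with limma on M, the log2 ratio of the methylated to the unmethylated share, in 1 fit of all groups over the 65610 sites with an SD of the level of at least 0.05, with p-values adjusted by the Benjamini-Hochberg method over all of them. Of the 114 sites 102 passed this filter. No Prdm or Ebf site had an adjusted p under 0.05. In the table as a whole 0% of sites did for CON-LFD against DIO-HFD, and 0.00305% for each of DIO-LFD against DIO-HFD, DIO-VSG against DIO-HFD and DIO-VSG against DIO-LFD. The smallest adjusted p among the 102 sites was 0.611 in the CON-LFD comparison, 0.494 in that of DIO-LFD, and 0.150 in that of DIO-VSG with DIO-HFD.

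The 102 sites nevertheless leaned the other way from the table. In DIO-VSG mice 27 of them were lower than in DIO-HFD mice with an unadjusted limma p under 0.05, or 26.5%, against 4.85% of all tested sites. Only 5 were higher, or 4.90%, against 20.2% of all tested sites. Median differences in M were -0.20 over the 102 sites and 0.48 over the table. In CON-LFD mice 2 sites were lower and 0 higher at that p, against 1.76% and 6% of all sites, with medians of -0.20 and 0.29. In DIO-LFD mice 5 were lower and 1 higher, against 2.16% and 7.92% of all sites, with medians of -0.12 and 0.30. When each mouse was centred on its own median, which moves the table's medians to about 0, the counts for DIO-VSG were 32 lower and 0 higher, against 11.4% and 8.64% of all tested sites in that fit. Neighbouring sites share reads and fragments, so these counts are not of independent sites. The count of 27 lower sites depended on the mice used. It was 33 without DIO-HFD replicate 1, 16 without replicate 2, 9 without replicate 3 and 19 without replicate 4, where 7.39%, 3.43%, 3.182% and 3.45% of all tested sites were lower. Without DIO-VSG replicates 1 to 4 in turn it was 16, 16, 14 and 18, where 3.58% to 4.07% of all tested sites were lower. Without a mouse of another group it was 21 to 26, where 4.59% to 4.98% were. In a fit of only the DIO-VSG and DIO-HFD mice it was 18, where 4.13% of all tested sites were lower. For CON-LFD the count ran from 0 to 23 and for DIO-LFD from 2 to 20 with 1 mouse left out, both highest without DIO-HFD replicate 1. Over these fits 0.919% to 5.31% and 1.53% to 5.43% of all tested sites were lower, also highest without that mouse. Without DIO-HFD replicate 3 the median for DIO-LFD turned to 0.02, so the direction of that comparison rests on 1 mouse.

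Sites of low and middle methylation held most of the lower sites. Of the 68 tested Prdm and Ebf sites with a mean level under 50%, 25 were lower in DIO-VSG mice than under DIO-HFD with an unadjusted limma p below 0.05, or 36.8%, where 9.96% of the 19799 such sites of the table were. With all mice, 10 of the 12 sites between 30% and 40% were lower, against 9.86% of sites in the table. From 0% to 10% it was 0 of 3, against 8.94%, and from 10% to 20% 8 of 22, against 13.5%. From 20% to 30% it was 3 of 17, against 12.95%, and from 40% to 50% 4 of 14, against 6.06%. Of the 34 sites at 50% or more, 2 were lower and 1 higher, or 5.88% and 2.94%, against 2.64% and 21.2% of such sites in the table. The median difference in M at these sites was 0.04 for the Prdm and Ebf genes and 0.58 for the table, so here too they lay below the table. The mean over all 74 Prdm and Ebf sites under 50% was 29.2%, 35.3% and 29.1% in DIO-HFD replicates 2, 3 and 4, and 20.7% to 27.8% in the 11 other mice, so the 3 mice lay above all others. Over all 23752 sites of the table under 50% the same 3 mice had 27.1%, 29.5% and 27.6%, and the others 28.2% to 32.6%, so there they were not above the others.

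**Figure D1:**
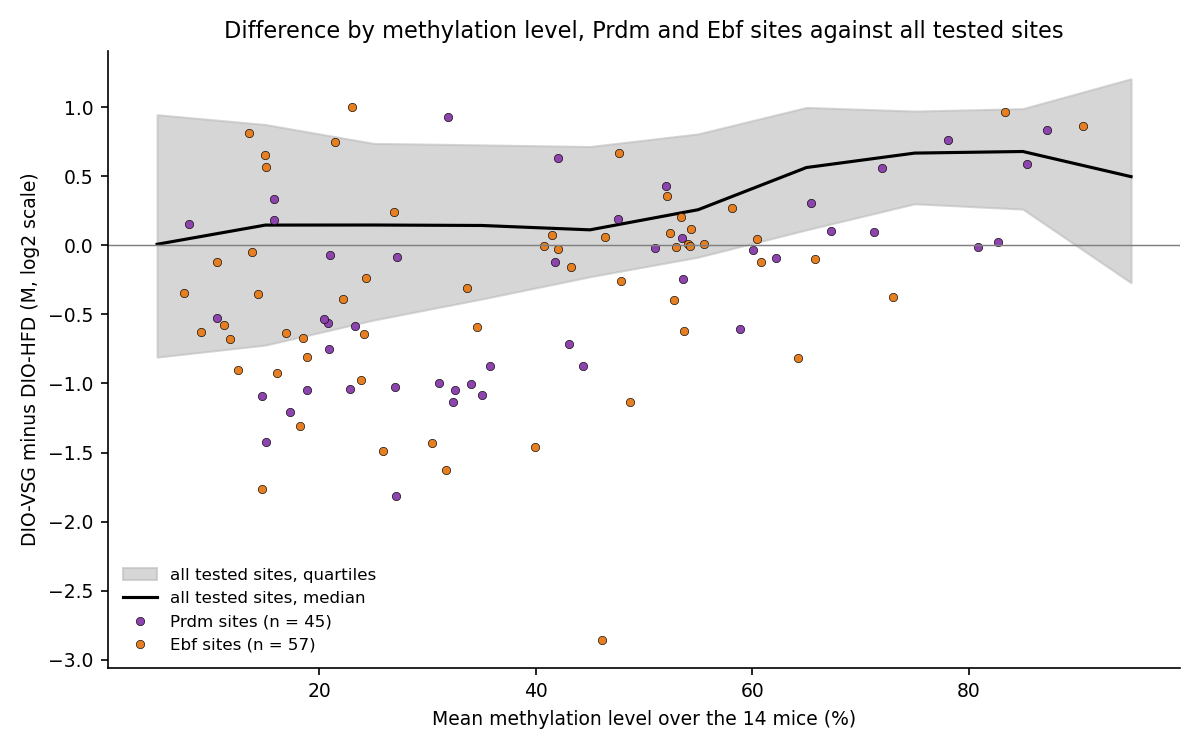
Difference in M (log2 scale) between DIO-VSG and DIO-HFD mice for each tested Prdm (45) and Ebf (57) site, against the mean methylation level over the 14 mice; the line and band give the median and the quartiles of all tested sites in steps of 10 percentage points. Below a level of 50% most of the points lie below the line, and at higher levels they spread around 0.

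The CpG island in intron 1 of Prdm16 held 14 of the 27 sites that were lower in DIO-VSG mice, and Ebf3 held 12. Its 20 neighbouring sites, at chr4:154634821-154635070, 1797 to 2046 bp downstream of the start, were averaged as 1 block, since sites with gaps of at most 100 bp were joined over the whole table. The block had levels of 21.2%, 35.1%, 45.0% and 34.6% in the DIO-HFD mice. It had 22.5%, 23.9%, 19.99% and 24.0% in the DIO-VSG mice, 19.7%, 29.9% and 30.4% in the CON-LFD mice, and 24.7%, 38.3% and 29.5% in the DIO-LFD mice. The DIO-VSG mice thus lay within a narrow range below every DIO-LFD mouse. DIO-HFD replicate 1 was the only DIO-HFD mouse in that range, and CON-LFD replicate 1 was just below it. The group means were 34.0% ± 9.76 (SD, n = 4) for DIO-HFD and 22.6% ± 1.88 (SD, n = 4) for DIO-VSG. In M they differed by -0.76 (SE 0.32, limma adjusted p = 0.106 over 7586 blocks), and without DIO-HFD replicate 1 by -1.05 (SE 0.26, adjusted p = 0.00513). Over the alternatives run, the adjusted p lay between 0.00513 and 0.277. For CON-LFD the difference was -0.48 (SE 0.34, adjusted p = 0.504), and -0.77 without DIO-HFD replicate 1 (SE 0.28, adjusted p = 0.0503). Over the alternatives run it lay between -0.79 and -0.21. For DIO-LFD it was -0.18 (SE 0.34, adjusted p = 0.773). That value changed sign (0.05) when DIO-HFD replicate 3 was left out, as it did (0.025) when DIO-LFD replicate 1 was.

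The sites of the island moved together across mice, with a median correlation of 0.77 between pairs of sites over the 14 mice. At 14 of the 20 sites the DIO-VSG level was lower with an unadjusted limma p under 0.05. Over all genes, 14.6% of the gene body sites in CpG islands with a mean level under 50% were lower and 17.5% higher at that p. Replicate 3 of the DIO-HFD mice had the highest level of all mice at 15 of the 20 sites, DIO-LFD replicate 2 at 4 and DIO-VSG replicate 2 at 1. Replicates 2, 3 and 4 were above all DIO-VSG mice at 18, 19 and 19 sites, replicate 1 at 2 sites. Of the other groups, CON-LFD replicates 1 to 3 were above them at 3, 17 and 17 sites and DIO-LFD replicates 1 to 3 at 5, 19 and 14, so the DIO-VSG mice also lay below most of these mice. The smallest p of Prdm16 was at chr4, 154634928, with 12.6%, 20.7%, 35.3% and 26.7% in DIO-HFD and 10.7%, 9.83%, 9.02% and 14.5% in DIO-VSG mice, a difference in M of -1.21 (SE 0.38, adjusted p = 0.150, and 0.00439 without DIO-HFD replicate 1). The single CCGG site of the island, 1875 bp downstream, stood at 50.2% to 70.1% in all mice, above the sites on either side of it.

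**Figure D2:**
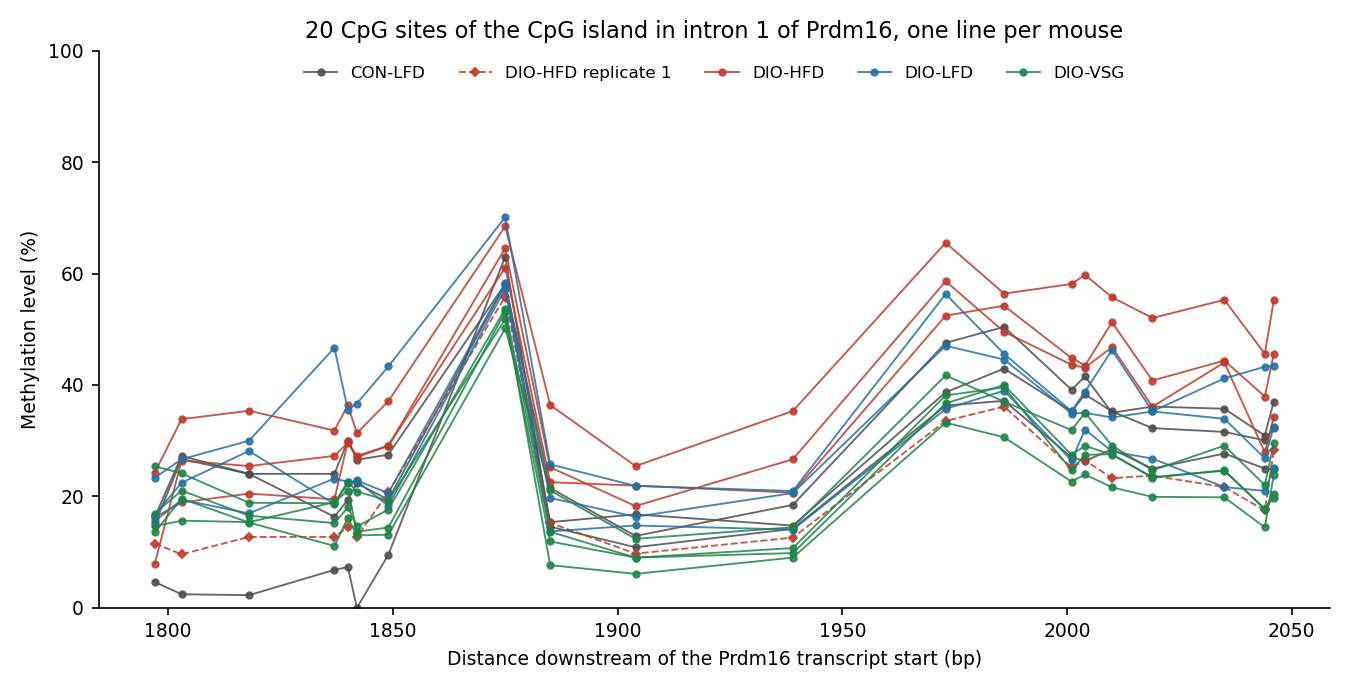
Methylation level (%) of the 20 CpG sites in the intron 1 island of Prdm16 against their distance downstream of the transcript start (bp), with 1 line for each mouse and DIO-HFD replicate 1 dashed. The lines of the 3 other DIO-HFD mice run along the top for most of the island together with DIO-LFD replicate 2, and those of the DIO-VSG mice along the bottom.

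The other blocks of Prdm16 gene body sites had higher levels than the island, and their means were higher in DIO-VSG than in DIO-HFD mice. The block of 4 sites 6466 to 6587 bp downstream, at chr4:154630280-154630401, had 88.8%, 79.0%, 76.0% and 74.2% in DIO-HFD mice and 85.3%, 85.5%, 86.9% and 84.4% in DIO-VSG mice. Here replicates 2 to 4 of the DIO-HFD mice lay below the DIO-VSG mice, opposite to the island. M differed by 0.52 (SE 0.31, adjusted p = 0.214), by 0.83 without DIO-HFD replicate 1 (SE 0.25, adjusted p = 0.0127), and by -0.03 when each mouse was centred on its own median over all blocks. The block of 3 sites at chr4:154630654-154630725 had 82.2%, 71.0%, 69.3% and 64.0% in DIO-HFD mice and 69.7% to 76.2% in DIO-VSG mice, with overlapping groups. The site with the largest SD over all mice, at chr4, 154632158, was at 81.5% in DIO-HFD replicate 1 and at 38.7%, 37.8% and 30.0% in the others. DIO-VSG mice had 43.75%, 60.8%, 56.8% and 60.6% there. M differed by 0.43 (SE 0.61, adjusted p = 0.669), and by 1.16 without DIO-HFD replicate 1 (SE 0.38, adjusted p = 0.0338). Averaged over all 31 gene body sites, Prdm16 had 41.3%, 45.5%, 51.9% and 44.1% in DIO-HFD mice and 39.0%, 40.4%, 38.9% and 40.1% in DIO-VSG mice. These groups did not overlap, and M differed by -0.35 (SE 0.16, adjusted p = 0.145 over 7992 gene regions, and 0.0427 without DIO-HFD replicate 1). The share of all regions or blocks whose groups do not overlap is not given here, so such separations are described only. No region of the 8 Prdm and Ebf regions with at least 3 sites passed the threshold in any of the 4 comparisons, nor did any region of the table (0%). The same held for the 10 Prdm and Ebf blocks and for all blocks (0%). At an unadjusted p under 0.05 limma counted 2 of the 8 regions and 4 of the 10 blocks for DIO-VSG against DIO-HFD, all lower, or 25% and 40%. Of all regions 4.03% were lower and 29.4% higher at that p, and of all blocks 6.54% and 31.7%. Without DIO-HFD replicate 3 the counts of lower regions and blocks were 1 and 2, against 2.64% and 3.97% of all. Without DIO-HFD replicate 1 they were 3 and 6, against 5.98% and 9.77%, and 1 block was higher, against 54.3%. With centred mice 7 of the 8 regions and 9 of the 10 blocks were lower at that p, against 19.7% of all regions and 18.7% of all blocks.

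The mean of the 3 promoter sites of Prdm16 overlapped between all groups. It was 51.8%, 42.0% and 39.3% in CON-LFD, 47.8%, 42.9%, 47.7% and 44.0% in DIO-HFD, 47.8%, 37.5% and 41.0% in DIO-LFD, and 47.8%, 43.9%, 47.6% and 44.3% in DIO-VSG mice. The adjusted p of its comparisons lay between 0.576 and 0.961. The site nearest to the start, 179 bp downstream in intron 1 (chr4, 154636688), had 80.9%, 71.4% and 70.2% in CON-LFD mice, above the 60.3% to 69.8% of DIO-HFD mice and opposite to the island, with a difference in M of 0.60 (SE 0.32, adjusted p = 0.611). DIO-LFD and DIO-VSG mice ran from 54.1% to 70.3%. The site 224 bp upstream (chr4, 154637089) was at 4.26% to 25.9%.

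Ebf3 showed the same lean upstream of its start. The 39 Ebf3 sites outside promoter and gene body, of which 36 lie within the longer RefSeq transcripts, averaged 27.8%, 34.3%, 40.1% and 34.6% in DIO-HFD mice and 26.4%, 27.0%, 27.8% and 25.7% in DIO-VSG mice. CON-LFD mice had 28.4%, 29.6% and 31.0% and DIO-LFD mice 27.3%, 31.6% and 29.7%. The DIO-VSG mice were thus all below DIO-HFD replicates 2 to 4, while the highest of them and DIO-HFD replicate 1 were practically equal, at 27.76% and 27.77%. M differed from DIO-HFD by -0.49 (SE 0.14, adjusted p = 0.107) for DIO-VSG, -0.29 (SE 0.15, adjusted p = 0.498) for CON-LFD and -0.30 (SE 0.15, adjusted p = 0.446) for DIO-LFD mice. Without DIO-HFD replicate 1 the adjusted p was 0.00123, 0.0229 and 0.0198 in that order.

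On average, the 3 sites of the block at chr7:137315949-137315981, 1505 to 1537 bp upstream, separated all DIO-HFD mice from all other mice. They averaged 44.6%, 55.98%, 60.0% and 58.3% in DIO-HFD mice, against 40.9%, 41.1% and 39.1% in CON-LFD, 30.0%, 25.6% and 42.5% in DIO-LFD, and 34.1%, 35.7%, 31.2% and 23.7% in DIO-VSG mice. Replicate 1 was again the lowest DIO-HFD mouse, but here it stayed above the others. The differences in M from DIO-HFD were -1.40 for DIO-VSG (SE 0.28, limma adjusted p = 0.0878), -1.31 for DIO-LFD (SE 0.30, adjusted p = 0.420) and -0.82 for CON-LFD (SE 0.30, adjusted p = 0.472). None passed the threshold. By its p the block was the second of the 7586 for DIO-VSG and the fifth for DIO-LFD. Without DIO-HFD replicate 1 the adjusted p was 0.000477, 0.00329 and 0.0154, and over the alternatives run it reached at most 0.231, 0.861 and 0.852. Its 3 sites were uneven. The CCGG site (chr7, 137315981) ran from 6.25% in DIO-LFD replicate 2 to 100% in DIO-HFD replicate 4, the largest SD of any Ebf3 site. The 100% raised the block mean of DIO-HFD replicate 4, and the separation of this mouse from the CON-LFD mice rests on the CCGG site. With the CCGG site left out, the block had too few sites to be fitted. The 6.25% of DIO-LFD replicate 2 lowered its block mean, and without this mouse M differed by -1.08 for DIO-LFD (adjusted p = 0.315). The same mouse was at 4% to 6.25% or at 93.3% at 4 other CCGG sites of Ebf3, far from the median of the other mice. The site 6 bp from it (chr7, 137315975) had 25.7%, 46.0%, 37.8% and 38.5% in DIO-HFD and 25.3%, 21.1%, 14.9% and 8.77% in DIO-VSG mice, a difference in M of -1.49 (SE 0.40, adjusted p = 0.150, and 0.00725 without DIO-HFD replicate 1), the smallest p of the 102 sites. The third (chr7, 137315949) overlapped between DIO-HFD mice, with 36.4% to 80%, and DIO-VSG mice, with 34.2% to 50%.

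In the other upstream blocks of Ebf3 the DIO-HFD group did not separate from all other mice. Its replicates 2 to 4 stood above all other mice only in the block 3740 to 3883 bp upstream. The 8 sites at chr7:137315699-137315819, 1255 to 1375 bp upstream, had 12.6%, 34.4%, 40.9% and 25.1% in DIO-HFD mice and 12.5%, 13.2%, 14.3% and 11.9% in DIO-VSG mice. The means of the other groups lay between, with 14.5%, 23.5% and 21.7% in CON-LFD and 14.5%, 30.0% and 21.9% in DIO-LFD mice. The difference in M for DIO-VSG was -1.24 (SE 0.41, adjusted p = 0.0878, and 0.00105 without DIO-HFD replicate 1). For CON-LFD it was -0.56 (SE 0.44, adjusted p = 0.526), and -0.99 without that mouse (SE 0.34, adjusted p = 0.0377). For DIO-LFD it was -0.40 (SE 0.44, adjusted p = 0.617), and -0.83 without that mouse (SE 0.34, adjusted p = 0.0684). The 5 sites at chr7:137318184-137318327, 3740 to 3883 bp upstream, had 18.7%, 40.3%, 41.5% and 39.9% in DIO-HFD mice and 24.8%, 25.5%, 25.4% and 25.5% in DIO-VSG mice. Replicate 1 was the lowest of all 14 mice in this block and the 3 other DIO-HFD mice the highest. The difference was -0.61 (SE 0.31, adjusted p = 0.158), and -0.99 without replicate 1 (SE 0.17, adjusted p = 0.000706). For CON-LFD, with 26.0%, 25.1% and 30.5%, it was -0.47 (SE 0.33, adjusted p = 0.502), and -0.85 without replicate 1 (SE 0.18, adjusted p = 0.00673). For DIO-LFD, with 23.5%, 31.3% and 30.4%, it was -0.39 (SE 0.33, adjusted p = 0.530), and -0.77 without replicate 1 (SE 0.18, adjusted p = 0.00870). The 4 island sites 1113 to 1146 bp upstream had 9.62% to 26.5% in DIO-HFD and 7.80% to 13.6% in DIO-VSG mice, with overlap, a difference in M of -0.71 (SE 0.37, adjusted p = 0.162, and 0.0310 without replicate 1). The 3 sites 3522 to 3624 bp upstream had 26.7% to 34.8% and 26.7% to 30.4%.

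**Figure D3:**
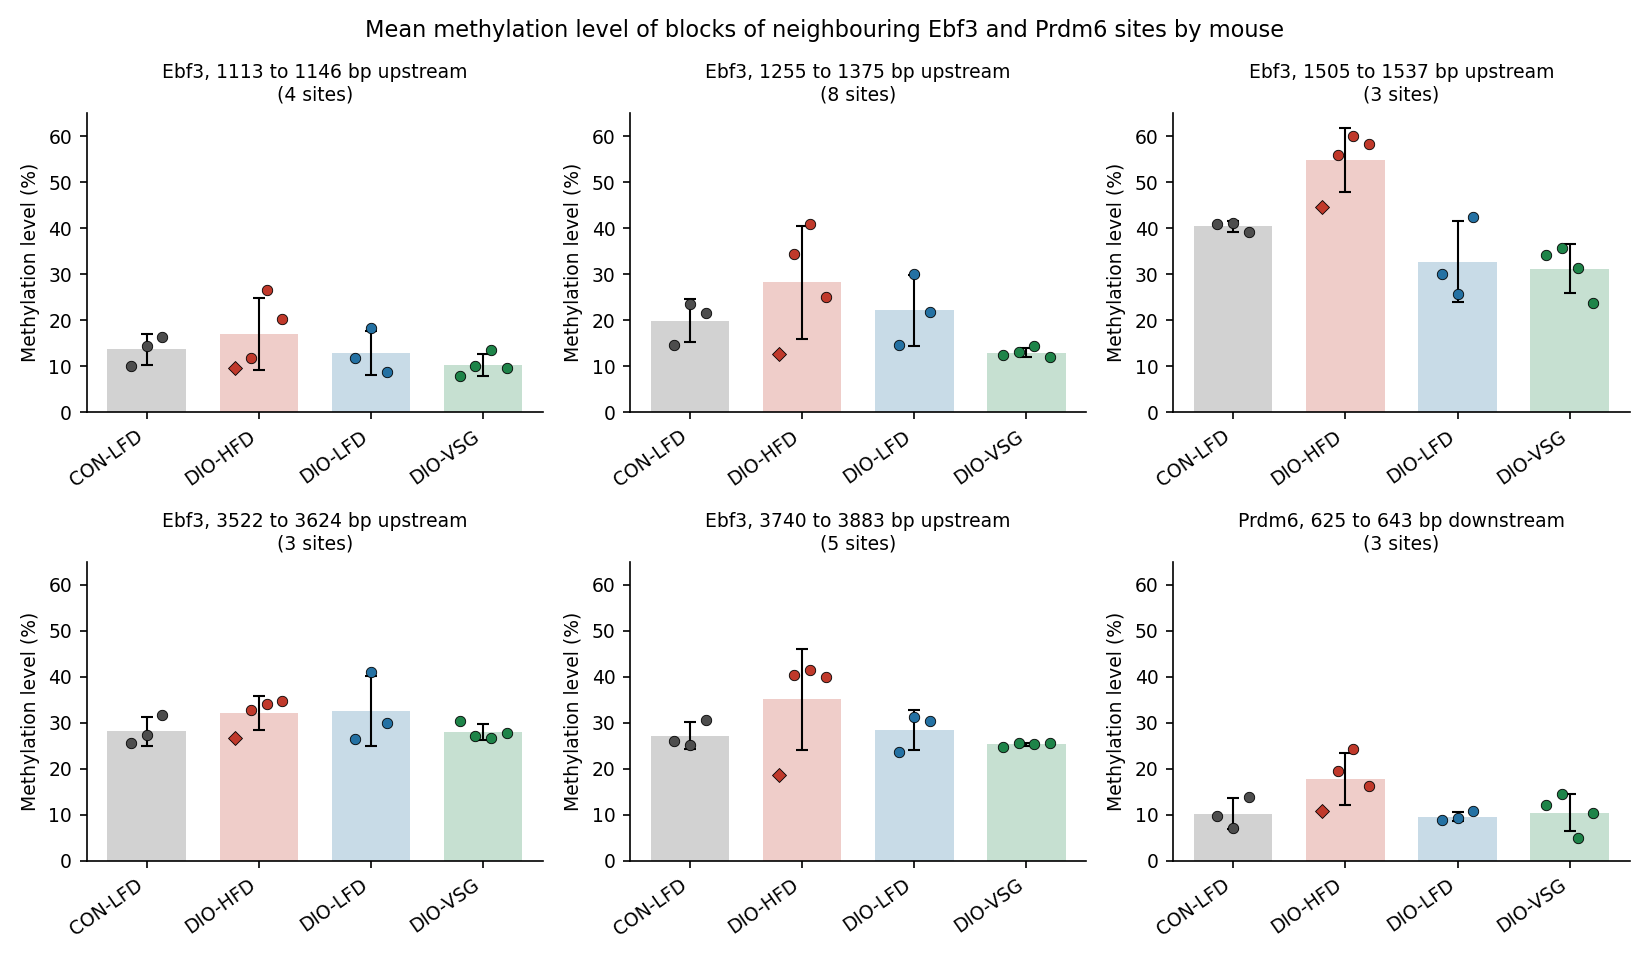
Mean methylation level (%) of the 5 upstream Ebf3 blocks and the Prdm6 block in each mouse (points), with group means (bars) and SD (error bars) for CON-LFD (n = 3), DIO-HFD (n = 4), DIO-LFD (n = 3) and DIO-VSG (n = 4); the diamond is DIO-HFD replicate 1. In the block 1505 to 1537 bp upstream all DIO-HFD points lie above those of the other groups, and in the others replicate 1 lies among or below the points of the other groups.

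The promoter and gene body of Ebf3 did not follow its upstream sites. The 3 promoter sites averaged 52.1%, 47.4%, 46.1% and 51.1% in DIO-HFD and 48.8%, 50.2%, 48.7% and 49.9% in DIO-VSG mice, a difference in M of 0.01 (SE 0.10, adjusted p = 0.941). In DIO-LFD mice they averaged 53.9%, 52.2% and 54.3%, above all DIO-HFD mice, with a difference in M of 0.24 (SE 0.11, adjusted p = 0.446) that vanished (0.00, adjusted p = 0.997) when mice were centred. The site nearest to the start, 19 bp upstream (chr7, 137314463), was at 33.6% to 53.4%. The 15 gene body sites averaged 47.2%, 43.2%, 44.3% and 39.8% in DIO-HFD and 47.0%, 44.9%, 41.6% and 45.5% in DIO-VSG mice, a difference of 0.07 (SE 0.12, adjusted p = 0.715). Both of these regions overlapped between DIO-HFD and DIO-VSG mice.

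**Figure D4:**
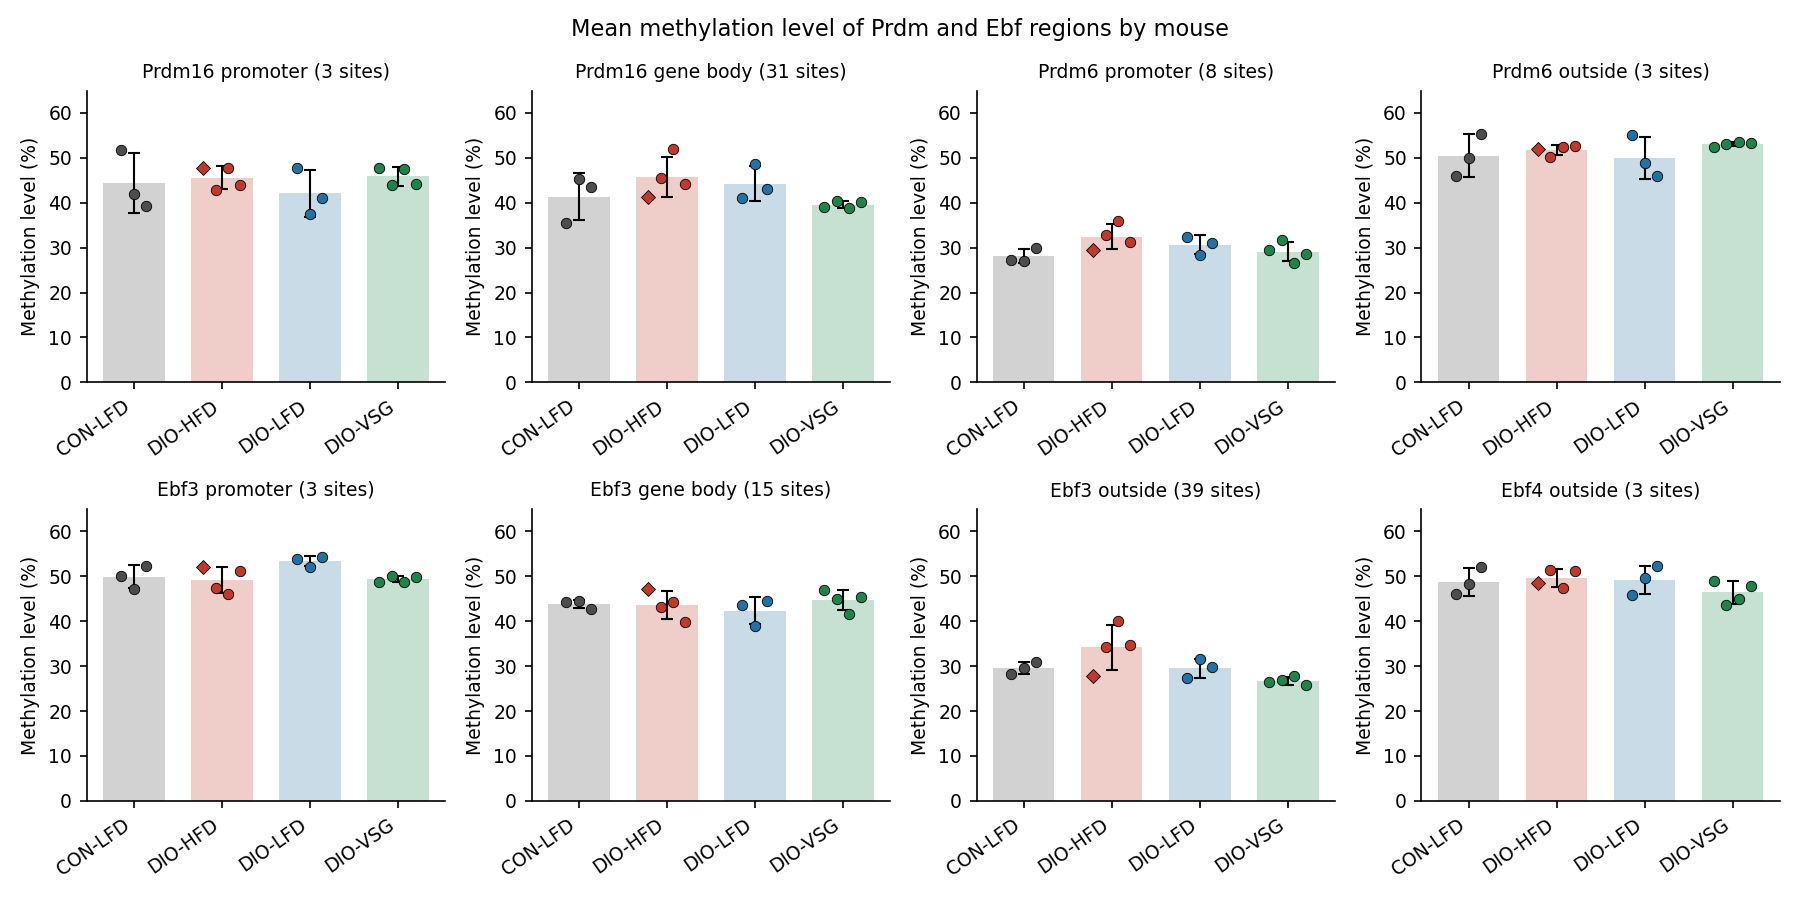
Mean methylation level (%) of the 8 Prdm and Ebf regions with at least 3 sites in each mouse (points), with group means (bars) and SD (error bars) for CON-LFD (n = 3), DIO-HFD (n = 4), DIO-LFD (n = 3) and DIO-VSG (n = 4); the diamond is DIO-HFD replicate 1. The DIO-VSG points lie below all DIO-HFD points for the Prdm16 gene body and, narrowly for replicate 1, for Ebf3 outside its promoter and gene body, and DIO-VSG and DIO-HFD overlap in the other 6 regions. The share of all regions without overlap is not given.

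Ebf2 and Ebf4 had few sites. Neither Ebf2 site reached the SD filter, so neither was tested. The Ebf2 promoter site averaged 52.8% ± 1.52 (SD, n = 4) in DIO-HFD and 55.5% ± 2.87 (SD, n = 4) in DIO-VSG mice. The 3 upstream Ebf4 sites averaged 49.7% ± 2.02 (SD, n = 4) in DIO-HFD and 46.4% ± 2.50 (SD, n = 4) in DIO-VSG mice, a difference in M of -0.19 (SE 0.12, adjusted p = 0.270). The intronic Ebf4 site 14754 bp downstream (chr2, 130310691) had 81.8%, 71.96%, 80.5% and 81.6% in DIO-HFD and 83.9%, 94.7%, 89.8% and 81.8% in DIO-VSG mice, which touch at 81.8%, with a difference in M of 0.96 (SE 0.38, adjusted p = 0.165). The Ebf4 site nearest to the start (chr2, 130295724), 215 bp upstream of 1 of its transcripts, had 26.8%, 29.2% and 27.1% in DIO-LFD mice, below the 31.5% to 49.3% of DIO-HFD mice and the 30.4% to 38.9% of DIO-VSG mice. The difference in M from DIO-HFD was -0.68 (SE 0.33, adjusted p = 0.495), and CON-LFD mice ran from 26.0% to 38.4%.

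Prdm6 was measured mainly in promoters. The 3 sites of a coding exon at chr18:53473604-53473622, flagged as the promoter of a shorter transcript, averaged 10.8%, 19.5%, 24.3% and 16.2% in DIO-HFD mice. They averaged 9.62%, 7.17% and 13.95% in CON-LFD, 8.78%, 9.34% and 10.7% in DIO-LFD, and 12.1%, 14.5%, 4.93% and 10.4% in DIO-VSG mice. Replicates 2 to 4 of the DIO-HFD mice were above all other mice, and replicate 1 was among them. M differed from DIO-HFD by -0.86 for DIO-VSG (SE 0.35, adjusted p = 0.103), -0.91 for DIO-LFD (SE 0.38, adjusted p = 0.420) and -0.85 for CON-LFD (SE 0.38, adjusted p = 0.472), and 0.0149, 0.0276 and 0.0347 were the adjusted p-values without replicate 1. Over all 8 promoter sites Prdm6 had 32.4% ± 2.79 (SD, n = 4) in DIO-HFD, 28.1% ± 1.58 (SD, n = 3) in CON-LFD, 30.7% ± 2.08 (SD, n = 3) in DIO-LFD and 29.1% ± 2.13 (SD, n = 4) in DIO-VSG mice. The differences in M were -0.29 for CON-LFD (SE 0.13, adjusted p = 0.498) and -0.22 for DIO-VSG (SE 0.12, adjusted p = 0.195). The 3 Prdm6 sites upstream of the gene averaged 51.8% ± 1.08 (SD, n = 4) in DIO-HFD and 53.1% ± 0.517 (SD, n = 4) in DIO-VSG mice.

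Prdm8 went the other way at 1 of its 2 promoter sites. The site 895 bp upstream of the start (chr5, 98166303) had 39.6%, 16.8%, 26.2% and 18.1% in DIO-HFD mice and 40.9%, 31.3%, 46.6% and 35.1% in DIO-VSG mice. DIO-HFD replicate 1 was the only one within the range of the DIO-VSG mice. M differed by 0.93 (SE 0.40, adjusted p = 0.179, and 0.0148 without replicate 1). Over the alternatives run the difference lay between 0.45 and 1.27, with a limma adjusted p between 0.0148 and 0.459. Of all tested sites 20.2% were higher in DIO-VSG mice at an unadjusted limma p under 0.05. Without replicate 1, 28.8% of them were higher at an adjusted p under 0.05. The other promoter site, 879 bp upstream (chr5, 98166319), was at 0% to 25% in DIO-VSG and 1.75% to 10.7% in DIO-HFD mice. Its difference in M was 0.15 (SE 0.92, limma adjusted p = 0.932). The coding exon site at chr5, 98185693, which overlaps the antisense gene A730035I17Rik, had the largest SD of Prdm8, with 0% in DIO-VSG replicate 2 and 39.3% in DIO-VSG replicate 1.

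Without DIO-HFD replicate 1, 38 of the 102 sites passed an adjusted p of 0.05 for DIO-VSG, 29 lower and 9 higher, or 28.4% and 8.82%, against 5.62% lower and 28.8% higher in the table. Of the lower sites 15 were Ebf3 sites outside promoter and gene body, 13 were in the Prdm16 island and 1 was the Prdm6 exon site. For CON-LFD 7 sites were lower and 1 higher, against 2.3% and 9.67% of the table, and 6 of the 7 were upstream Ebf3 sites. For DIO-LFD 5 were lower and 2 higher, against 2.42% and 12.1%, and all 5 were upstream Ebf3 sites. Of the 8 regions 2 passed for DIO-VSG, 1 for CON-LFD and 1 for DIO-LFD, all lower, against 5.11%, 2.99% and 2.89% of all regions that were lower. Of the 10 blocks 6 were lower and 1 higher for DIO-VSG, against 8.98% and 49.4% of all blocks. For CON-LFD 4 were lower and 0 higher, against 5.85% and 30.3%, and for DIO-LFD 3 were lower and 0 higher, against 5.81% and 31.5%. Leaving out a mouse of the study's own group changes the group, and these counts describe the remaining 13 mice.

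DIO-VSG and DIO-LFD mice, which ate the same diet after weight loss, were also compared directly. At an unadjusted limma p under 0.05, 2 of the 102 sites were lower and 0 higher in DIO-VSG mice, against 1.55% and 2.42% of the table, with median differences in M of -0.17 and 0.16. With 1 mouse left out the lower count ran from 0, without DIO-LFD replicate 2, to 8, without DIO-HFD replicate 1. It was 8 in a fit of only the DIO-VSG and DIO-LFD mice. In those fits 1.66%, 2.42% and 2.11% of all tested sites were lower, in that order. The Prdm16 island differed by -0.58 (SE 0.34, adjusted p = 0.944), without overlap between the groups. The Ebf3 block 1255 to 1375 bp upstream differed by -0.84 (SE 0.44, adjusted p = 0.944), also without overlap. The share of all blocks without overlap between these groups is not given here. The Ebf3 block 1505 to 1537 bp upstream differed by only -0.09 (SE 0.30, adjusted p = 0.959), with overlap. Whatever the p, 6 of the 10 blocks were lower and 4 higher in DIO-VSG mice, against 31.8% of all blocks that were lower.

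Sites of genes that mark cell types were averaged in each mouse. The 44 sites of adipocyte genes, from 6 of 15 listed genes, averaged 66.3% to 70.2% in DIO-HFD replicates 2 to 4, 79.99% in replicate 1 and 73.0% to 81.1% in the other groups. The 13 sites of endothelial genes, from 4 of 6, averaged 40.0% to 42.3%, 59.0% and 50.2% to 60.2%. In both lists DIO-HFD replicates 2 to 4 had the lowest levels of all mice, and the DIO-HFD group as a whole overlapped with the others through replicate 1. The same 3 mice were also the lowest over the sites of all genes other than the Prdm and Ebf genes. They had 57.0% to 57.4% there, against 60.0% to 65.1% in all other mice, so this trait is not particular to the 2 lists. The 33 sites of lymphocyte genes, from 7 of 16, averaged 57.0% to 59.7% in DIO-HFD replicates 2 to 4, 65.8% in replicate 1 and 57.4% to 65.8% in the other groups. The 39 sites of mammary epithelial genes, from 8 of 11, averaged 61.2% to 64.9%, 70.4% and 62.2% to 70.1%. In these lists replicates 2 to 4 were also below replicate 1, but they overlapped with the other groups. Sites of these lists were also counted for DIO-VSG against DIO-HFD at an unadjusted limma p under 0.05. Of the 30 tested lymphocyte sites 7 were lower and 8 higher, or 23.3% and 26.7%, against 4.85% and 20.2% of all tested sites. Lower and higher were 1 and 15 of 39 adipocyte, 0 and 7 of 11 endothelial, and 3 and 2 of 32 mammary epithelial sites. The part of cell composition or of the mouse's mean level in the results above was not tested.

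Other regulators of adipocyte fate were counted in the same way. Of 60 listed genes of brown, beige and white adipocyte development 50 had sites, and 551 of their 658 sites were tested. For DIO-VSG against DIO-HFD 27 were lower and 111 higher at an unadjusted limma p under 0.05, or 4.90% and 20.1%, close to the 4.85% and 20.2% of the table, and 0 passed the adjusted threshold. The median difference in M was 0.22, below the 0.48 of the table. Whatever the p, 38.7% of the tested sites of the list were lower, against 28.7% of all tested sites. For DIO-LFD 28 were lower and 44 higher, or 5.08% and 7.99%, where the Prdm and Ebf sites had 4.90% and 0.980% and all tested sites 2.16% and 7.92%. For CON-LFD 12 were lower and 31 higher, or 2.18% and 5.63%. The 4.90% of lower Prdm and Ebf sites for DIO-LFD was thus no higher than that of this list. Among the 4 genes of the list with the most tested sites, Gata2, a repressor of adipogenesis, had for DIO-VSG against DIO-HFD 11 lower and 20 higher of 84. Tbx1, a marker of beige adipocytes, had in the same comparison 3 and 1 of 58, Rxra, the partner receptor of PPARγ, 0 and 18 of 57, and Pax7, a muscle lineage factor, 1 and 12 of 49. The 7 other genes of the PR domain family had 60 sites, 42 of them tested, with 0 lower and 4 higher for DIO-VSG against DIO-HFD, or 9.52% higher against 20.2% of all tested sites, and a median difference in M of 0.09 against 0.48.

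The genes whose gene body level was most like that of Prdm16 were sought among 2973 genes with at least 3 gene body sites, by Pearson's r over the 14 mice. They included Dll4 (r = 0.94), Hic1 (0.92), Gm20636 (0.87) and Mybpc3 (0.84). After subtraction of each mouse's mean over all sites they were Dll4 (0.98), Hic1 (0.97), Gm20636 (0.96), Gm44599 (0.96) and Dynlt1b (0.95). For Ebf3, r was -0.38 before and 0.52 after the subtraction. Subtracting the same mean from both genes adds a shared part to every such r.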

How the data were processed

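Reduced-representation bisulfite sequencing (RRBS) reads bisulfite-converted DNA at MspI (CCGG) fragments. Alignment to mm10 by the authors used Bismark; they called methylation with methylKit, and removed 2 outlier mice. They deposited the methylation level as a fraction for each site and mouse, with no read counts, so depth is unknown, and intervals were not calculated. Groups came from the sample labels. Each sample was taken as 1 mouse. Genes, distances, and promoter, exon, intron and island flags are those of the table, and GENCODE M21 and RefSeq (GRCm38.p6, the same build) gave exons and overlapping genes. The genes and lists were chosen with earlier results of these data known.

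Each level b became M = log2((b + 0.01)/(1 − b + 0.01)), fitted for all 4 groups with limma 3.58.1 in R 4.3.3 (eBayes without trend or robust), for sites with an SD of at least 0.05, for the mean of at least 3 sites of a gene in 1 class, and, chosen after seeing the data, for blocks of at least 3 sites with gaps of at most 100 bp. Adjustment over all rows followed Benjamini and Hochberg, with a threshold of 0.05. Sequences were read with pysam 0.24.0. The fits were tested on simulated data. Sites named were, per gene, that with the smallest p against DIO-HFD, that nearest to the start and that with the largest SD; not every one is printed. One gene of the likeness ranking is not reported here. Individual sites of blocks were named after their values were seen.

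Results were recomputed with another offset (0.1), with levels instead of M, with trend and robust eBayes, with only the 2 groups compared, and by centring each mouse, the replicate number as a block, leaving out each mouse, no SD filter or a minimum of 0.1, sites outside CCGG, regions of at least 1 site, promoters of 1000 bp, and block gaps of 50 and 200 bp. The table has 12 empty columns.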

Additional observations from a re-analysis of the deposited data

Results flagged for a closer look

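In groups of 4 mice, a mouse was singled out where its gap to the nearest of the others was too large a part of the group's range by Dixon's test at 95%. Over 74 groups tested 5 were, and chance alone singles out about 1 in 20. Of the DIO-HFD mice, replicate 1 was at 18.7% in the Ebf3 block 3740 to 3883 bp upstream (others 39.9% to 41.5%) and at 81.5% at the Prdm16 site 4709 bp downstream (others 30.0% to 38.7%). DIO-HFD replicate 2 was at 71.96% at the Ebf4 site 14754 bp downstream (others 80.5% to 81.8%). Of the DIO-VSG mice, replicate 1 was at 24.8% in the same Ebf3 block (others 25.4% to 25.5%) and at 63.4% at its CCGG site, chr7, 137318327 (others 57.5% to 58.4%).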

How the results depend on the processing

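No Prdm or Ebf site, region or block passed an adjusted p of 0.05 in any comparison under any alternative other than leaving out DIO-HFD replicate 1. With 1 mouse left out, 0 to 8 sites passed in the comparison of CON-LFD with DIO-HFD, 0 to 7 in that of DIO-LFD, and 0 to 38 in that of DIO-VSG. The number of regions ranged from 0 to 1, 0 to 1 and 0 to 2, and of blocks from 0 to 4, 0 to 3 and 0 to 7. The cause was not tested. Of the 28 differences followed through the alternatives, those that changed sign were that of the Ebf3 promoter for DIO-LFD (-0.00157) and of the distal Prdm16 block for DIO-VSG (-0.032), both with centred mice, and that of the Prdm16 island for DIO-LFD. The last ran from -0.47 to 0.049 with 1 mouse left out, above 0 in the absence of DIO-HFD replicate 3 or of DIO-LFD replicate 1 (0.025). With the replicate number as a block, 0 sites, 0 regions and 0 blocks passed; the correlation of deviations was over 0.1 in 4 of 19 same-numbered pairs and in 2 of 54 others, and 8 of 14 mice were closest to one of their own number. Depth per site is unknown, and the number of reads behind single sites with extreme levels (0%, 100%, and the CCGG sites of DIO-LFD replicate 2 at 4% to 6.25% or 93.3%) was not known.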
